A study of Mus musculus with 5 samples.

Results

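The period, cryptochrome and casein kinase genes are the 8 genes Per1, Per2, Per3, Cry1, Cry2, Csnk1d, Csnk1e and Ciart, chosen by name. In the series, 12195 genes were nearest to at least 1 ChIP or IgG peak, among them 3 of the 8. Peaks were taken for a gene where the authors' HOMER annotation, which gives each peak the gene with the nearest transcription start site (TSS), named it. The study mapped chromatin binding of the nuclear receptor Nr1d1 (REV-ERBα) in murine type 1 helper T cells, with 3 Nr1d1 ChIP libraries, 1 IgG mock library and 1 input DNA library. All 5 libraries came from C57BL/6 wild-type mice aged 4 to 6 weeks, whose naive CD4 T cells were used. The cells were differentiated in vitro with plate-bound anti-CD3, soluble anti-CD28, IL-12, IFNγ and anti-IL4, and were harvested after 3 to 4 days. The labels carry the Nr1d1 antibody on the IgG and input libraries too, so groups follow the sample titles. They do not say whether mice were pooled or at which time of day cells were taken.

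The deposited lists held 19586 ChIP peaks and 17111 IgG peaks, both called over the input, and 14471 ChIP peaks that overlapped no IgG peak, called ChIP-specific below. Each list describes an antibody as a whole, so no value has a replicate error and no test between groups was possible. A peak came with a length and a false discovery rate (FDR) and with no read count, so the depth behind it is unknown. Counts of genes and peaks below are complete counts over these lists. Of 6 T cell and Th1 marker genes (Cd3e, Cd4, Tbx21, Ifng, Stat4 and Il12rb2), Ifng alone was assigned a ChIP-specific peak (16.7%, against 17.5% of protein-coding genes), 169578 bp from its start. An IgG peak was assigned to 0 of the 6, against 17% of protein-coding genes. Counting peaks in the gene or within 5 kb, Cd4 had a ChIP-specific peak in place of Ifng (16.7%, against 16.8%). By that count 0 had an IgG peak, against 15.9%. Peaks do not measure expression, so the cell type could not be checked this way.

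These genes form the negative limb of the circadian clock. The activators CLOCK and BMAL1 switch on the period and cryptochrome genes through E-boxes in DNA, and the PER and CRY proteins then assemble, enter the nucleus and block their own activators. Casein kinases 1 delta and epsilon phosphorylate PER proteins and so set how long they last, and Ciart (also called Chrono) encodes a further repressor of the activators. Nr1d1 acts in a linked loop. It binds ROR response elements (ROREs), whose core is AGGTCA behind an A/T-rich stretch, and represses genes there, and Cry1 is among the clock genes known from other tissues to be controlled through such elements.

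Sequence upstream of the start site was taken from RefSeq (GRCm38.p6) for the 6 genes that had an entry, Per1, Per3, Cry1, Cry2, Csnk1e and Ciart. Entries were not found for Per2 and Csnk1d. The 5 stretches below are shown because they hold a clock motif, and the Cry2 stretch also because the nearest peak begins just past it. Each gives the 250 bases before the start site, 5′ to 3′ on the strand of the gene, with capitals for an E-box (CACGTG), a variant E-box (CACGTT), a D-box (TTANGTAA) or the AGGTCA core, read on either strand.
Per1 (chr11:69098699-69098948, plus strand): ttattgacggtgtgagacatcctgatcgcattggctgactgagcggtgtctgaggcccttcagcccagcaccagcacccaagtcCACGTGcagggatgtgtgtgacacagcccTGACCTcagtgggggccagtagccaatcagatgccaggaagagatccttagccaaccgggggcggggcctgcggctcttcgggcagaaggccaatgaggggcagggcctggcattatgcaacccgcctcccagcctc
Per3 (chr4:151044666-151044915, minus strand): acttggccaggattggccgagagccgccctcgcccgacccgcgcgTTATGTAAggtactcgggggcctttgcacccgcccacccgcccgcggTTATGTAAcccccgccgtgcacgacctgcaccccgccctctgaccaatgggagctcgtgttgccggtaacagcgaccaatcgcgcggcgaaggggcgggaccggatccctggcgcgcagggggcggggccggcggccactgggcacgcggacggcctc
Cry1 (chr10:85185055-85185304, minus strand): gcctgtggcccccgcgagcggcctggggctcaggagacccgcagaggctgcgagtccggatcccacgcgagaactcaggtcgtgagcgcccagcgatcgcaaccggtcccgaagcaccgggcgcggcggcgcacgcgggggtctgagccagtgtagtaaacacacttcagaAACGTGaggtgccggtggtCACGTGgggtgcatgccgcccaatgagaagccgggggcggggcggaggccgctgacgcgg
Cry2 (chr2:92434070-92434319, minus strand): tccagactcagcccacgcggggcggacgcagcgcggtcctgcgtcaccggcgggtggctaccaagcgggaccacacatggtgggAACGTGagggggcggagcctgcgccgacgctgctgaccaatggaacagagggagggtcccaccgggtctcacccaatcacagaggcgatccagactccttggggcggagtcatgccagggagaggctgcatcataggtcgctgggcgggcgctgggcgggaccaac
Ciart (chr3:95882229-95882478, minus strand): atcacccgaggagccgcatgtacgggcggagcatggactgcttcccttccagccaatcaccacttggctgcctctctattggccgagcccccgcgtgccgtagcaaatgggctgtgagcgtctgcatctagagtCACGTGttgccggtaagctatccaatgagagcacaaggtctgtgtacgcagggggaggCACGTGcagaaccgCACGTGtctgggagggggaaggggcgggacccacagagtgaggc

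The sequences differed in which motifs they held. Windows of 300 bases, from 250 before to 50 after the start, were searched on both strands. Ciart had 3 copies of CACGTG, beginning 116, 58 and 44 bases before the start. Cry1 had CACGTG 60 bases before the start and the variant, as AACGTG, 79 bases before it. Per1 had CACGTG 166 bases before the start at 69098949, and Cry2 had the variant at the same distance from its own start. The 2 Per1 windows were at the starts 69098949 and 69100152. The RefSeq body of Per1 begins further upstream, at 69095108, where no window was available to search. CACGTG was thus present at 3 of the 6 genes, against 8.09% of 27025 genes with a window, and CACGTT at 2 of 6, against 5.44%. Per3 held 2 D-boxes, each spelled TTATGTAA, 205 and 158 bases before the start, where 2.72% of genes had a match to TTANGTAA. The 250 upstream bases of the 6 genes were rich in G and C, from 61.2% to 80.8%, with a median of 52.4% over all windows, and the part of this in the E-box matches was not tested.

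The letters of a full RORE, searched as the core AGGTCA with AANT directly before it, were at 0 of the 6 genes. They were at 0.259% of the 27025 genes with a window, and in 0.219% of all 32851 windows. A RevDR2 element, a pair of such cores in the same direction 2 bases apart, was at 0 of the 6 genes. Its share was 0.0074% of genes and 0.00913% of windows. The core AGGTCA alone was at 18.1% of genes and in 16.3% of windows. Among the 6 genes Per1 had it, as TGACCT on the other strand, 137 bases before the start. Known ROREs can lie in introns or further upstream, outside these windows. Of the peaks themselves, only 30 bases of the Cry2 peak, given below, were searched.

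Of the 8 genes, 3 were assigned a ChIP peak, Cry1, Cry2 and Csnk1e, with 1 peak each. Over all 21883 protein-coding genes the share was 22%. All 3 peaks were ChIP-specific, as were 73.9% of all ChIP peaks. The ChIP-specific list reached 17.5% of protein-coding genes. By the same assignment 0 of the 8 genes were assigned an IgG peak, against 17% of all genes. Each of the 3 peaks lay within 10 kb of a start site, a range in which 9.85% of genes had a ChIP-specific peak. Both cryptochrome genes, 1 of the 2 kinase genes and 0 of the 3 period genes were thus assigned a peak, and Ciart had none. The 3 classes differed, with an exon peak at Cry2, an intron peak at Csnk1e and an intergenic peak at Cry1, and 0 peaks were in the promoter class, which held 5.52% of ChIP-specific peaks.

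**Figure D1:**
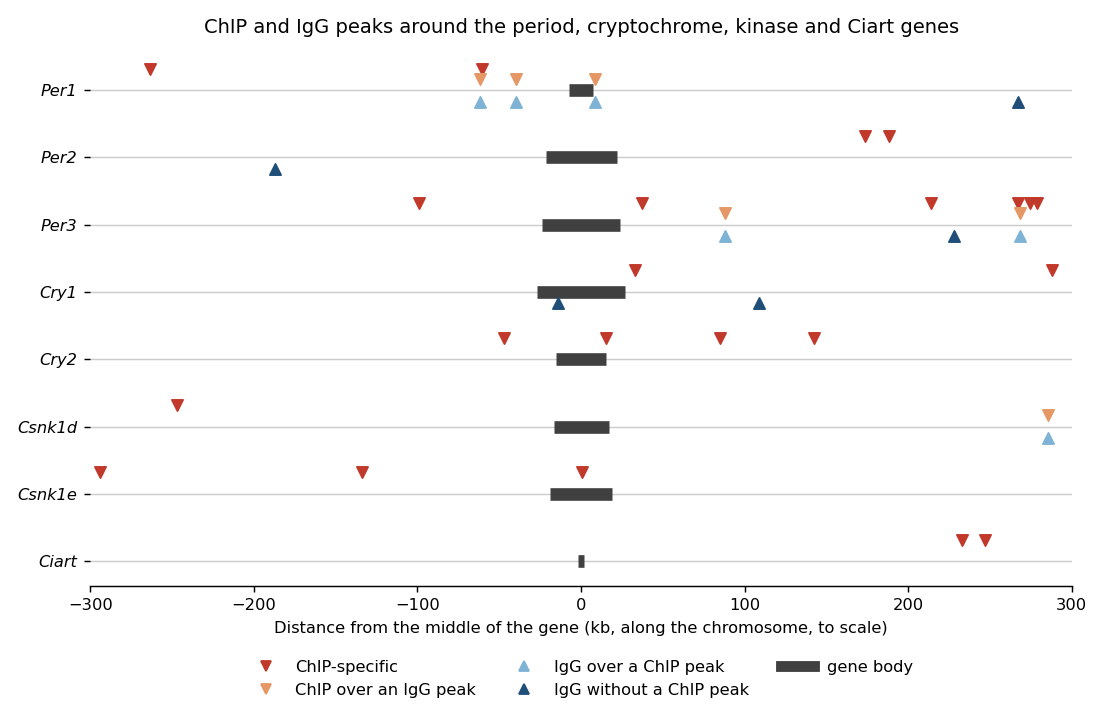
Peaks within 300 kb of the middle of each gene, along the chromosome and to scale. Triangles above a line are ChIP peaks and triangles below it IgG peaks, by whether they overlap a peak of the other antibody, and bars are gene bodies. Peaks touch the bodies of Cry2 and Csnk1e (ChIP-specific) and Cry1 (IgG), and Per1 has a ChIP and an IgG peak on top of each other beside its end.

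Cry2 encodes a cryptochrome that represses CLOCK and BMAL1. Its peak lay at chr2:92433776-92434049 (mm10), was 275 bp long and had an FDR of 0.0275. The centre was 124 bp downstream of the start of the transcript used by the authors' annotation and 156 bp downstream of the RefSeq start at 92434069. At that distance the start used by the authors' annotation lay inside the peak, and the RefSeq start lay outside it. The peak reached 30 bases into the RefSeq promoter window, all of them after the RefSeq start. These are printed because they are the bases of the peak that the reference tables held.
Cry2 inside the peak (chr2:92434020-92434049, minus strand): cagaccgagacccagtccaggcggcgatgg
No searched motif was found in these 30 bases, and the variant E-box of Cry2 shown above lay outside the peak. Among the ChIP-specific peaks, 3.26% were centred as near to a start site as this one. The class exon was the usual one at this distance, given to 63 of the 104 ChIP-specific peaks centred 100 to 150 bp downstream of a start, with 24 in the promoter class. By FDR the Cry2 peak was weak, since 79.6% of ChIP-specific peaks had a lower FDR, while by length 12.2% were longer. The nearest IgG peak was 373 kb from the gene, and 84.8% of genes had one as near.

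Cry1 encodes the other cryptochrome. Its peak was upstream of the gene at chr10:85190976-85191174, 200 bp long, with an FDR of 0.0088. The centre lay 6021 bp before the start site, which is the same in RefSeq and in the authors' annotation, and so outside the 250 bases printed above. Of ChIP-specific peaks, 21.2% were as near to a start site, 11% had a lower FDR and 39% were longer. An IgG peak of 125 bp lay in the body of Cry1, at chr10:85143976-85144099 with an FDR of 0.00845. The IgG peak was 41 kb downstream of the Cry1 start and had been assigned to Mterf2, a mitochondrial transcription factor gene, whose start was 16010 bp away. The FDR at Cry1 was therefore about as low for the IgG peak inside the gene as for the ChIP peak outside it, and neither overlapped a peak of the other antibody. The 2 lists were called separately, so their FDR values are given side by side only.

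Csnk1e encodes casein kinase 1 epsilon. It had an intronic peak at chr15:79437351-79437599, 250 bp long, with the same FDR of 0.0088 as the Cry1 peak. The authors' annotation placed the centre 1543 bp downstream of the start of a transcript that begins inside the gene. From the 4 RefSeq starts that had a promoter window, the centre was 4343 to 4668 bp downstream. The RefSeq body of this minus-strand gene begins further upstream still, at 79455579. The distance of this peak thus depends on the transcript chosen. Of ChIP-specific peaks 18.8% were longer, and 11.1% were as near to a start as 1543 bp. The nearest IgG peak was 348 kb away and lay in an exon of Nptxr, a neuronal pentraxin receptor gene.

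The shared FDR of the Cry1 and Csnk1e peaks was a common value. The 19586 ChIP peaks had 629 different FDR values, and 1394 peaks had this one, which made it the second most frequent. It therefore places both peaks in a large tied group, of which 1026 peaks were ChIP-specific. Of these 1026, 760 were longer than the Cry1 peak and 429 longer than the Csnk1e peak. The 3 peaks at these genes were not among the 162 of the ChIP-specific list whose FDR was printed as 0.

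**Figure D2:**
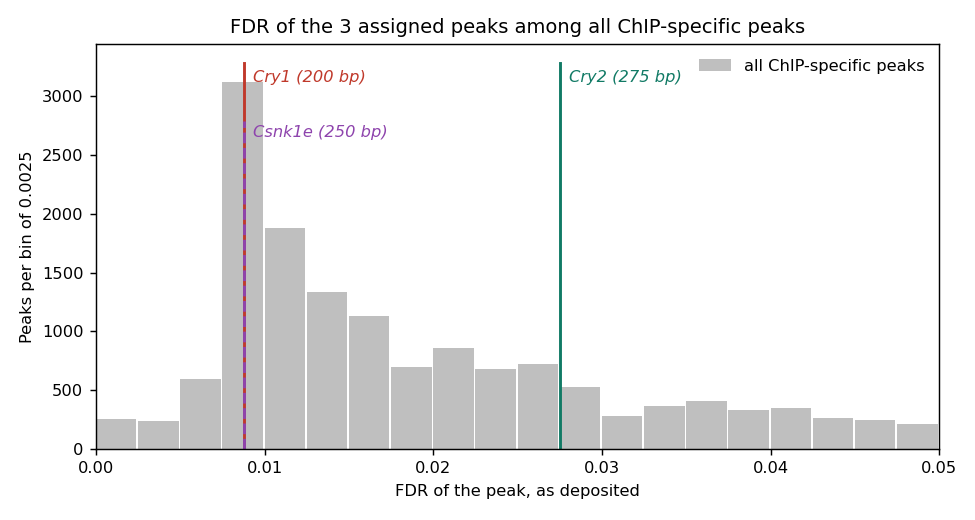
Number of ChIP-specific peaks per FDR bin of 0.0025, with the FDR of the peaks at Cry1, Csnk1e and Cry2 as vertical lines and their lengths in parentheses. Cry1 and Csnk1e share an FDR of 0.0088 in the fullest bin, of 3125 peaks, and Cry2 lies at 0.0275.

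The period genes had no assigned peak in any of the 3 lists, and their surroundings differed. Per1 encodes a PER protein that responds quickly to light and hormones. It had a ChIP peak 986 bp past its 3′ end (chr11:69110951-69111149, 200 bp, FDR 0.00956), which the authors' table assigns to Hes7, a repressor of the somite segmentation clock, whose start was 9354 bp away. An IgG peak of 100 bp with an FDR of 0.0413 lay within it (chr11:69111026-69111124) and covered 49.7% of it, so it is missing from the ChIP-specific list. Within 100 kb of Per1, 3 of 4 ChIP peaks overlapped an IgG peak. The exception was a 100 bp peak 53.2 kb away assigned to Aurkb, a mitotic kinase gene, with an FDR of 0.0263. This was the nearest ChIP-specific peak to Per1, and 38.4% of genes had one as near.

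Per2, whose protein is the main PER scaffold, stood far from peaks of either antibody. The nearest ChIP-specific peak was 152 kb away, at the promoter of the long noncoding gene Gm28380 (chr1:91611151-91611274, FDR 0.00956). The nearest IgG peak was 165 kb away on the other side, at the promoter of Ube2f, a NEDD8-conjugating enzyme gene (chr1:91250601-91250774). Within 100 kb of Per2 there were 0 peaks in any list. Of all genes, 64.7% had a ChIP-specific peak as near as that of Per2 or nearer.

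Per3, which encodes the PER protein least needed for rhythms, had its nearest ChIP-specific peak 13.4 kb away, upstream of its start. That peak lay at the promoter of the neighbouring gene Vamp3, a SNARE gene of vesicle fusion (chr4:151058101-151058199). It was 100 bp long, the shortest length in the lists, and had an FDR of 0.0252. Farther out, 75.2 kb from the other end of Per3, a ChIP-specific peak of 350 bp with an FDR printed as 0 lay in an intron of Tnfrsf9, the gene of the T cell costimulatory receptor 4-1BB (chr4:150921426-150921774). A ChIP peak at the promoter of Camta1, 63.9 kb from Per3, overlapped an IgG peak along its whole length, and that IgG peak had an FDR printed as 0. The 2 D-boxes printed for Per3 were not under a peak.

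Csnk1d and Ciart were the members farthest from ChIP-specific peaks. Csnk1d encodes casein kinase 1 delta, the closest relative of the product of Csnk1e, and its nearest ChIP-specific peak was 230 kb away, at the promoter of Dcxr, a carbonyl reductase gene (chr11:120727176-120727324, FDR 0.021). For Ciart it was 231 kb away, in an intron of Otud7b, a deubiquitinase gene (chr3:96112901-96113099, FDR 0.0191). About as many genes had a peak as near, 76.6% for Csnk1d and 76.7% for Ciart. Both had 0 peaks of either antibody within 100 kb, and the nearest IgG peaks were 269 kb and 450 kb away. The 3 E-boxes printed for Ciart were thus far from a peak of any list.

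Seen by distance, the order from the nearest ChIP-specific peak was Cry2 and Csnk1e, with a peak inside, then Cry1 at 5.92 kb, Per3 at 13.4 kb, Per1 at 53.2 kb, Per2 at 152 kb, Csnk1d at 230 kb and Ciart at 231 kb. The median of the 8 was 33.3 kb, against 89.7 kb over all protein-coding genes. With peaks of an FDR of at most 0.01, which leaves out the Cry2 peak, these medians were 204 kb and 262 kb. In the IgG list the median of the 8 was 217 kb, against 99.5 kb over all genes, and 217 kb against 166 kb at that FDR. The nearest ChIP-specific peak was closer than the nearest IgG peak for 6 of the 8, the exceptions being Per1 and Cry1, while this held for 49.5% of all genes. With the full ChIP list it held for 7 of the 8, all but Cry1, and for 60.3% of all genes. These are descriptions of 8 chosen genes, 6 of which were longer than the median gene of 17.2 kb, and the part of gene length in them was not tested.

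**Figure D3:**
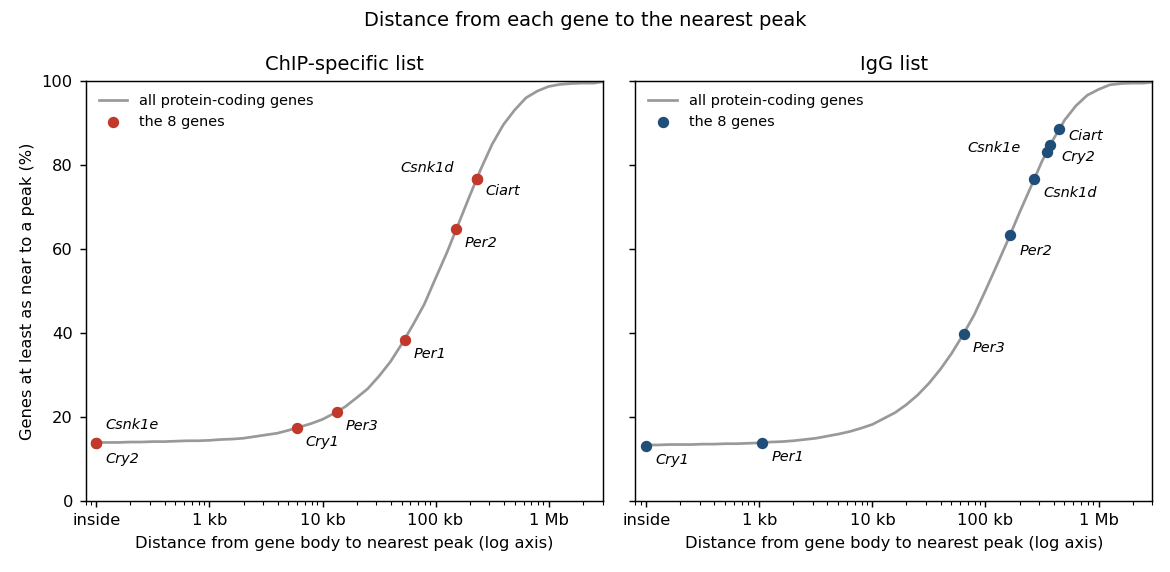
Distance from the gene body to the nearest ChIP-specific peak (left) and IgG peak (right) on a log axis, with peaks inside the gene or under 100 bp away drawn at the left edge. The grey line gives the percentage of 21883 protein-coding genes as near to a peak, and points are the 8 genes. Cry2 and Csnk1e lie at the left edge for ChIP-specific peaks, and Cry1 does for IgG peaks.

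The count by antibody depended on how a peak was tied to a gene. Counting peaks in the gene or within 5 kb of it, 2 of the 8 genes had a ChIP-specific peak, Cry2 and Csnk1e (16.8% of all genes), and 2 had an IgG peak, Per1 and Cry1 (15.9%). In the full ChIP list 3 of the 8 had one, with Per1 added (21.6%). The contrast of 3 against 0 genes given by nearest start sites was thus 3 against 2 by nearness to the gene in the full lists. The ChIP-specific count leaves out Per1, whose ChIP and IgG peaks overlapped, while the IgG count keeps it. Within 100 kb of the 8 genes together lay 12 ChIP peaks, of which 8 were ChIP-specific, and 6 IgG peaks, of which 2 were without ChIP overlap. Over the whole lists, 73.9% of ChIP peaks and 70.1% of IgG peaks overlapped no peak of the other antibody. Both of the 2 IgG peaks without overlap were within 100 kb of Cry1, inside the gene and 82.2 kb from it.

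Peak density in the surroundings varied among the 8 genes. With 500 kb on each side, the ChIP-specific density ran from 1.92 peaks per Mb at Per2 to 8.59 at Per3, with a median of 3.00 over all genes. At Per3, 88.4% of genes had a lower density, and 6 of the 9 ChIP-specific peaks there were assigned to 1 gene, 4930589P08Rik, and lay inside Camta1, which encodes a calmodulin-binding transcription activator. Cry2 came next, with 6 ChIP peaks at 5.82 per Mb, all 6 of them ChIP-specific, and 1 IgG peak at 0.97 per Mb. Per1 had 7 ChIP peaks, of which 2 were ChIP-specific, and 6 IgG peaks in its surroundings. The remaining genes, Per2, Cry1, Csnk1d, Csnk1e and Ciart, had 2 to 4 ChIP-specific and 1 to 3 IgG peaks.

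**Figure D4:**
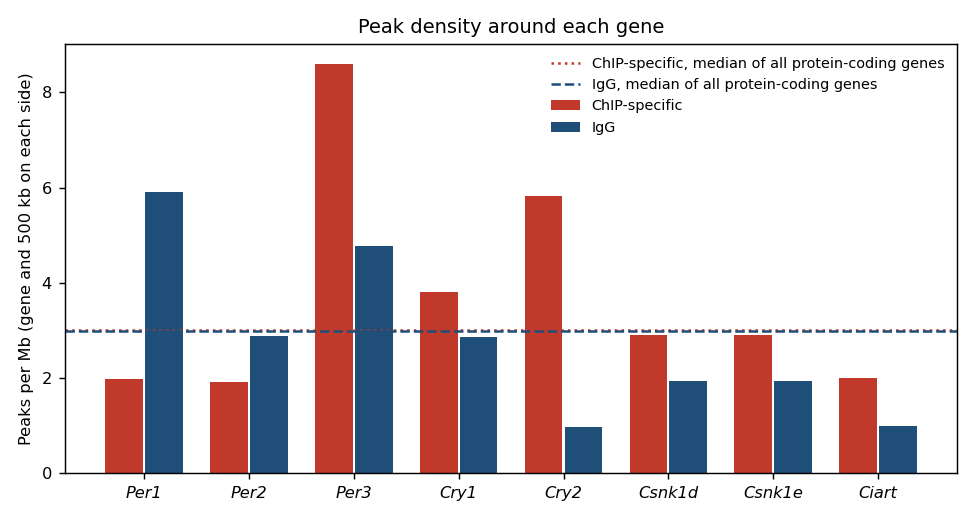
Peaks per Mb over each gene and 500 kb on each side, for the ChIP-specific (red) and IgG (blue) lists, with the medians of all protein-coding genes (3.00 and 2.98) as lines that nearly coincide. Per3 and Cry2 have the tallest ChIP-specific bars, 8.59 and 5.82, and Per1 the tallest IgG bar, 5.91.

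The other genes of the pathway were counted in the same way. Of 31 genes whose products modify, bind or degrade PER and CRY proteins, 4 (12.9%) were assigned a ChIP-specific peak, against 17.5% of protein-coding genes. An IgG peak was assigned to 3 (9.68%), against 17%. Counting peaks in the gene or within 5 kb, 3 (9.68%) had a ChIP-specific peak, against 16.8% of all genes. By that count 4 (12.9%) had an IgG peak, against 15.9%. Csnk2a2, a catalytic subunit of casein kinase 2, had a ChIP-specific promoter peak 17 bp upstream of its start (chr8:95488776-95488899, FDR 0.0168). Csnk1g3, a casein kinase 1 gene of the gamma type, had an intergenic peak 5238 bp upstream, and Mapk8, the JNK1 gene, an intronic one. Prkaa2, which encodes a catalytic subunit of the energy sensor AMPK, had an intronic peak 36878 bp downstream of its start. The ubiquitin protease gene Usp7, the kinase gene Dyrk1a and Mapk8 had ChIP peaks at their promoters that lay over IgG peaks with an FDR printed as 0.

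Of 14 other clock genes, the activators, REV-ERB and ROR receptors, PAR bZIP factors and DEC repressors, 2 (14.3%) were assigned a ChIP-specific peak and 5 (35.7%) an IgG peak. The former were Bhlhe40, which encodes the repressor DEC1, with a promoter peak 792 bp upstream of the start, and Rorb, with the nearest of its 5 peaks 6150 bp from a start. The genes with an IgG peak were Arntl, Hlf, Nr1d1, Rora and Rorb. That of Nr1d1 was 525 bp long, 664 bp from a start, with an FDR printed as 0. The shares of all protein-coding genes were 17.5% for ChIP-specific peaks and 17% for IgG peaks. In the full ChIP list 4 of the 14 (28.6%) were assigned a peak, Bhlhe40, Hlf, Rora and Rorb, against 22% of all genes. Arntl and Nr1d1 were thus assigned an IgG peak and no ChIP peak. Counting peaks in the gene or within 5 kb, 3 of the 14 (21.4%) had a ChIP-specific peak, with Clock added, against 16.8% of all genes, and 4 (28.6%) had an IgG peak, against 15.9%.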

How the data were processed

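The authors' deposited files give, for each antibody as a whole, peak intervals with a length and an FDR (a q-value printed to 6 decimals), and HOMER annotations with a class, a nearest gene, a distance to its TSS and a score that equals the peak length. Reads were aligned to mm10 with BWA and peaks were annotated with HOMER, per the submitters' processing notes and the file headers, without versions. Not given in the sources used here are the peak caller and the way of joining the 3 ChIP libraries.

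Positions are 1-based, as in the annotation tables. The list without overlap was checked: it held all 14471 ChIP peaks without an IgG overlap of at least 1 bp. Gene bodies, older symbols and promoter sequences came from RefSeq GRCm38.p6, the build of mm10, on 21 chromosomes. Backgrounds are 21883 protein-coding genes. Distances run from gene bodies unless a TSS is named. The code (Python 3.11.15, numpy 2.4.6, pandas 2.3.3, matplotlib 3.10.9) was tested on simulated intervals. No test was run, since there is 1 list per antibody. All 8 genes were described. Of the other pathway genes, up to 4 per set with a ChIP-specific peak were described by the peak nearest to a TSS. Genes with peaks in the other lists were named only in part. One gene of the pathway lists is not reported here and was left out of their counts. The members and lists were chosen with earlier results of these data known. Alternatives changed the FDR limit, the assignment, the overlap, the background and the motif length.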

Additional observations from a re-analysis of the deposited data

How the results depend on the processing

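The counts of 3 genes with a ChIP peak and 3 with a ChIP-specific peak changed by at most 1 gene. They were 2 in both lists with an FDR of at most 0.01 or 0.025, where Cry2 was lost. Limits of 10 kb or 100 kb from the TSS left them at 3. The IgG count of 0 became 2 when peaks in the gene or within 5 kb were counted, and stayed 0 under the other alternatives. No ChIP peak assigned to the 8 genes had an IgG peak overlapping it or within 1000 bp. With an FDR of at most 0.01 the median distance to the nearest peak rose from 9658 to 107859 bp in the ChIP list and from 33314 to 203929 bp in the ChIP-specific list, and was 216939 bp in the IgG list under both. Of 24 distances, 10 moved by over 1.5 times, among them that of Cry2 to a ChIP-specific peak, from 0 to 490441 bp. Over all RefSeq genes, the shares with an assigned peak were 15.4% (ChIP), 12.6% (IgG) and 12.5% (ChIP-specific). With the shorter cores, 1 of the 6 genes had AGGTCA (18.1% of all genes), 4 had ACGTG (21.8%) and 2 had TTATG (31.1%). The cAMP element TGACGTCA was at 0 of the 6 (2.03%) and its core TGACG at 4 (23%). No library could be left out, and no paired analysis was possible because the lists hold no value per library. Read depth is unknown, so a gene without a peak is a gene at which none was called.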
